A study of Mus musculus with 17 samples.

Results

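The genes described here are collagens and other proteins of the extracellular matrix, measured in the ovaries of mice with and without the luteinising hormone receptor Lhr. A list of 38 matrix genes was matched by symbol to the annotation of the array. For 34 of them a probe carried the symbol, and 32 had a probe that was kept, of 12137 genes measured in all. No probe carried the symbols Col12a1, Col6a3, Loxl2 and Fbn1, and no probe of Fbln5 or Postn was detected on any of the 16 arrays used below, so these 6 genes were not analysed here. Each gene was read from its brightest kept probe. The 32 genes were 5 of 5 listed fibrillar collagens, 1 of 2 fibril-associated collagens, 2 of 3 collagen VI chains, 2 of 3 lysyl oxidases, 10 of 10 basement membrane genes, 3 of 5 elastic fibre genes, 4 of 4 proteoglycans and 5 of 6 matricellular and adhesive glycoproteins.

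Total RNA of whole ovaries was labelled with biotin as cRNA and hybridised to single-colour Illumina bead arrays, 1 sample on each of 17 arrays. All samples came from 12-week-old females of a cross between FVB/N and C57/BL6. The groups were Lhr-null (4 arrays), the double mutant Fshr-CAM/Lhr-null (5 arrays), Fshr-CAM, which carries a changed receptor for follicle stimulating hormone and keeps Lhr (4 arrays), and wild type (4 arrays). The labels do not expand CAM, do not say how either allele was made and do not say whether each array holds a separate animal, so that a p-value here measures only the spread between these samples. No probe carried the symbol Lhcgr, so the targeted transcript could not be checked.

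Fibrillar collagens bear the tension in ovarian stroma and in the wall of the follicle, and lysyl oxidases cross-link them. Basement membranes, built of type IV collagen and laminin and joined by nidogens and perlecan, separate granulosa cells from theca and surround blood vessels. When a follicle ovulates, its wall is broken down and vessels grow into the forming corpus luteum, which has subendothelial basement membranes of its own. Luteinising hormone triggers ovulation and luteinisation by way of Lhr.

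Col4a1 and Col4a2, which encode chains of type IV collagen, lie head to head in the genome and are read from opposite strands. The sequences around their starts are shown because the values of this pair of basement membrane genes are set side by side further on. Tgfbi, which was lower without Lhr, and Lama2, which was higher, are shown as examples from other chromosomes. Of the 32 measured genes, 20 had a window in the RefSeq promoter table (GRCm38.p6), reaching from 250 bases before the annotated start to 50 after it. The windows of Col4a1 (chr8:11312777-11313076, minus strand) and Col4a2 (chr8:11312555-11312854, plus strand) share 78 bases, given in capitals, in which 73.1% of the bases are G or C. The annotated starts lie 21 bases apart, and the annotated transcripts overlap there, with 22 bases covered by both. In the shared stretch the same letters stand in both windows as each other's reverse complement. In Tgfbi (chr13:56609336-56609635, plus strand) and Lama2 (chr10:27616893-27617192, minus strand), capitals mark each match to the GC box GGGCGG on either strand. Sequences run 5′ to 3′ along each gene's own strand.
Col4a1: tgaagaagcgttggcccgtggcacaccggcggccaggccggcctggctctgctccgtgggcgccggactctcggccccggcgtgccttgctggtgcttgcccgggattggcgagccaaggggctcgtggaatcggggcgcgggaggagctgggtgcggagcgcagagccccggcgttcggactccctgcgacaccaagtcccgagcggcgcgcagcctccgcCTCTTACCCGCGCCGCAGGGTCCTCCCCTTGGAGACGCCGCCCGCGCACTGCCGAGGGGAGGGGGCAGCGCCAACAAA
Col4a2: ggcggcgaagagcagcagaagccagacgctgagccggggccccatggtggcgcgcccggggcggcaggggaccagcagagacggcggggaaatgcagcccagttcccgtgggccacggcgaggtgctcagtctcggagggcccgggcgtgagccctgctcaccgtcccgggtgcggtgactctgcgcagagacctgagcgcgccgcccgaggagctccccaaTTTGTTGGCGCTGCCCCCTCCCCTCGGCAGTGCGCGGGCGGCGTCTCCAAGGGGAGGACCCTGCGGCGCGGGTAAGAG
Tgfbi: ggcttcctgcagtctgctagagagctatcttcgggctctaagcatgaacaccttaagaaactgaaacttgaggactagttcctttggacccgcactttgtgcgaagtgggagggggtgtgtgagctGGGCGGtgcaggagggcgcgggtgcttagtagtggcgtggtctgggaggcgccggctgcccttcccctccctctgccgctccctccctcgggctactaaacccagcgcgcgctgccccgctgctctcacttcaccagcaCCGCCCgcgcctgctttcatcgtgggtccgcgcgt
Lama2: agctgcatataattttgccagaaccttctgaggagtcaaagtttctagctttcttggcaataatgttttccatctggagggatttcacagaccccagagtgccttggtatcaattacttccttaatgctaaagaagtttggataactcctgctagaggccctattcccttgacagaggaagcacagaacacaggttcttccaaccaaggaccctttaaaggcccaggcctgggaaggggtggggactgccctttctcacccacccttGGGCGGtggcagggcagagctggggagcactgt

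The GC box was found on either strand in the windows of 15 of the 20 genes (75.0%), against 35.7% of all 32851 windows in the table. It occurs 1 time in the stretch that Col4a1 and Col4a2 share. CCAAT was found for 8 of the 20 genes (40.0%), against 37.4% of all windows, and TATAAA for 2 (10%), against 13.6%. The 20 genes had 23 windows, and a gene counted if any of its windows matched. The shares of genes and of all windows are therefore not in the same unit. None of the 3 motifs contains another, and these matches describe only the letters in the windows.

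Between 19366 and 22006 probes were detected per array, the median signal was 56.7 to 74.4, and 41 to 43 beads stood behind the median probe. The array labelled Lhr-null replicate 1 stood apart. The mean log2 signal of 8 pituitary genes was 12.8 there, against 4.36 to 4.59 on the other 16 arrays, and its correlation with them across 12260 genes was 0.806 to 0.827, against 0.907 to 0.988 among the others. On that array 28 of the 32 matrix genes lay below the range of the other 3 Lhr-null arrays, 2 lay above it (Lox and Loxl1) and 2 within it. All later comparisons therefore come from 16 arrays without it, with 3 Lhr-null arrays, and counts with all 17 arrays are given beside them. The levels in this paragraph come from all 17 arrays normalised together. The 3 kept Lhr-null arrays also carried more signal of other tissues. The mean of 8 oviduct and ciliated epithelium genes was 8.11 to 9.81, against at most 6.37 on the other 13 arrays. That of 6 adipocyte genes was 7.31 to 7.46, against at most 6.78. That of 4 spermatid genes was 10.3 on replicate 2, 6.73 on replicate 3 and 7.31 on replicate 4, against at most 6.45. Of the 8 oviduct genes 6 passed as higher in Lhr-null against wild type, of the 6 adipocyte genes 5, and of 3 spermatid genes in the fit 2. Of all genes 5.50% passed as higher there. The Fshr transcript had a log2 signal of 9.71 on Fshr-CAM/Lhr-null replicate 4 and of 11.40 to 11.70 on the other double mutant arrays. The part of these signals in the results on matrix genes was not tested.

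Against wild type, Lhr-null ovaries had lower signals of a small set of matrix genes and more Lama2. Most of the lower genes were of the basement membrane or matricellular class, which hold 10 and 5 of the 32 measured genes. In Fshr-CAM/Lhr-null against Fshr-CAM 0 matrix genes passed as lower, where only 1.66% of all genes did. In the test of the difference between these contrasts 0 of the 32 passed, against 0.198% of all genes. In Lhr-null against wild type, 9 of 32 matrix genes passed an adjusted p of 0.05, 8 lower (Lox, Tgfbi, Sparc, Col18a1, Hspg2, Col4a1, Col5a1 and Col4a2) and 1 higher (Lama2). Of all 12137 genes 12.4% passed, 6.90% lower and 5.50% higher. Adjusted p-values are those of limma over all genes with the Benjamini-Hochberg method. The median log2 fold change of the matrix genes was -0.11, and that of all genes -0.0036. For 10 of the 32 genes the Lhr-null and wild type arrays did not overlap, against 24.8% of all genes. With all 17 arrays, 4 genes passed (Col18a1, Hspg2, Sparc and Tgfbi, all lower). Of all genes 668 were higher and 837 lower, and with signals only centred on each array's median, without background correction, 392 were higher and 953 lower.

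In the Fshr mutant the same contrast, Fshr-CAM/Lhr-null against Fshr-CAM, gave 1 call among the 32 matrix genes, Lama2, which was higher. Of all genes 2.11% passed there, 0.445% higher and 1.66% lower. The median of the matrix genes was -0.09 and that of all genes 0.02. The double mutant and Fshr-CAM arrays did not overlap for 3 of the 32 genes (Lama2, Fbln2 and Dcn), against 7.39% of all genes. At an unadjusted p under 0.05, 8 matrix genes and 2182 of all genes passed. With all 17 arrays 0 matrix genes passed. With median-centred signals 5 passed, all lower (Col4a2, Col18a1, Fbln2, Fn1 and Sparc), while the median of all genes was -0.12 and 19 of all genes were higher and 595 lower, against 54 and 202 with background correction.

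Averaged over both Fshr genotypes, loss of Lhr gave 10 calls, 8 lower (Fbln2, Sparc, Tgfbi, Col18a1, Lox, Hspg2, Col4a2 and Col4a1) and 2 higher (Lama2 and Thbs1). Of all genes 21.3% passed, 10.4% lower and 10.8% higher. The matrix median was -0.15, that of all genes 0.01. For 0 of the 32 genes were all 8 arrays without Lhr apart from all 8 with it, against 2.92% of all genes. With all 17 arrays 4 genes passed (Col18a1, Fbln2, Sparc and Tgfbi). With median-centred signals 14 were lower and 2 higher, and of all genes 2156 were lower and 493 higher, against 1268 and 1316 with background correction. The averaged contrast uses the arrays of both single contrasts and is not independent of them.

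**Figure D1:**
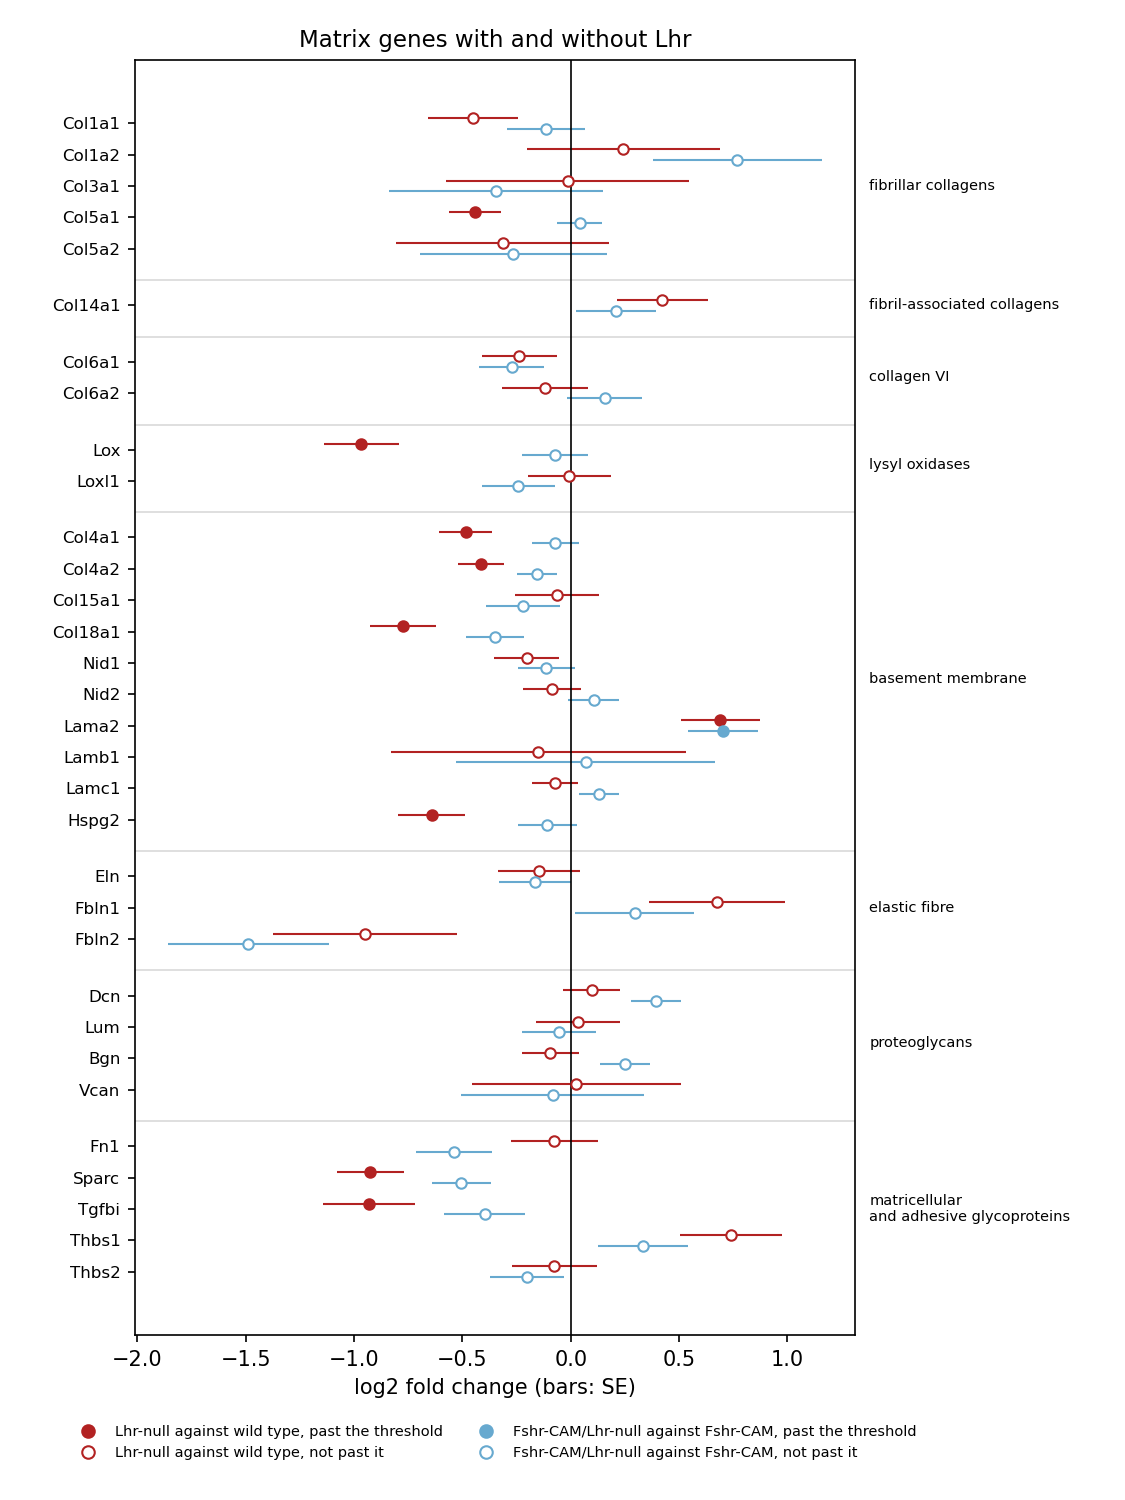
Log2 fold change with its SE (x axis) of each of the 32 matrix genes (y axis, by group), red for Lhr-null against wild type and blue for Fshr-CAM/Lhr-null against Fshr-CAM, filled where the adjusted p is under 0.05. The red points hold 8 filled genes left of 0 and 1 right of it, the blue points 1 filled gene, Lama2, right of 0.

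Lists of cell type genes changed as well. Of 10 endothelial genes, 7 were lower in Lhr-null than in wild type ovaries and 0 higher, where 12.4% of all genes passed. In Fshr-CAM/Lhr-null against Fshr-CAM 0 of the 10 passed, where 2.11% of all genes did. There 9 of the 10 fold changes were below 0, with a median log2 fold change of -0.32. In Fshr-CAM/Lhr-null against wild type 2 were lower, where 5.68% of all genes passed as lower. The mean level of the 10 genes was 7.63 to 8.0 in Lhr-null and 7.87 to 8.38 in Fshr-CAM/Lhr-null arrays. It was 8.20 to 8.95 in Fshr-CAM and 8.27 to 8.73 in wild type arrays. All 6 measured corpus luteum genes passed as lower in Lhr-null against wild type, and 4 of the 6 in Fshr-CAM/Lhr-null against Fshr-CAM. Their mean level was 6.21 to 6.83 in Lhr-null and 6.44 to 6.91 in Fshr-CAM/Lhr-null arrays. It was 8.86 to 9.84 in Fshr-CAM and 9.37 to 10.67 in wild type arrays. The luteal levels thus did not overlap between arrays with and without Lhr. In whole ovary, fewer cells of a type and less RNA per cell cannot be told apart, and the part of either list in the results on matrix genes was not tested. The mean levels of the fibroblast and stroma list overlapped, at 8.57 to 8.86 in Lhr-null and 8.42 to 8.85 in Fshr-CAM/Lhr-null arrays, against 8.20 to 8.58 in Fshr-CAM and 8.40 to 8.60 in wild type arrays.

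Further lists were read in the same way. Of all genes 12.4% passed in either direction in Lhr-null against wild type and 0.206% in Fshr-CAM against wild type. In the double mutant against Fshr-CAM 2.11% passed, and in the averaged contrast 21.3%. Of 8 granulosa genes, 4 were higher in Lhr-null than in wild type ovaries (median log2 fold change 0.76), 3 in Fshr-CAM than in wild type and 0 in the double mutant against Fshr-CAM. Of 8 measured oocyte genes, 7 were higher in the averaged contrast (median 0.84), 1 in Lhr-null against wild type and 0 in the double mutant against Fshr-CAM. Of 7 macrophage genes, 3 were lower in the averaged contrast and 0 passed in either single contrast. Of 7 theca and interstitial genes, 3 were higher and 1 lower in the averaged contrast, and of 7 surface epithelium genes 1 was higher (14.3%). This last share and that of oocyte genes in Lhr-null against wild type (12.5%) were near or below those of all genes. The part of these lists in the results on matrix genes was not tested.

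**Figure D2:**
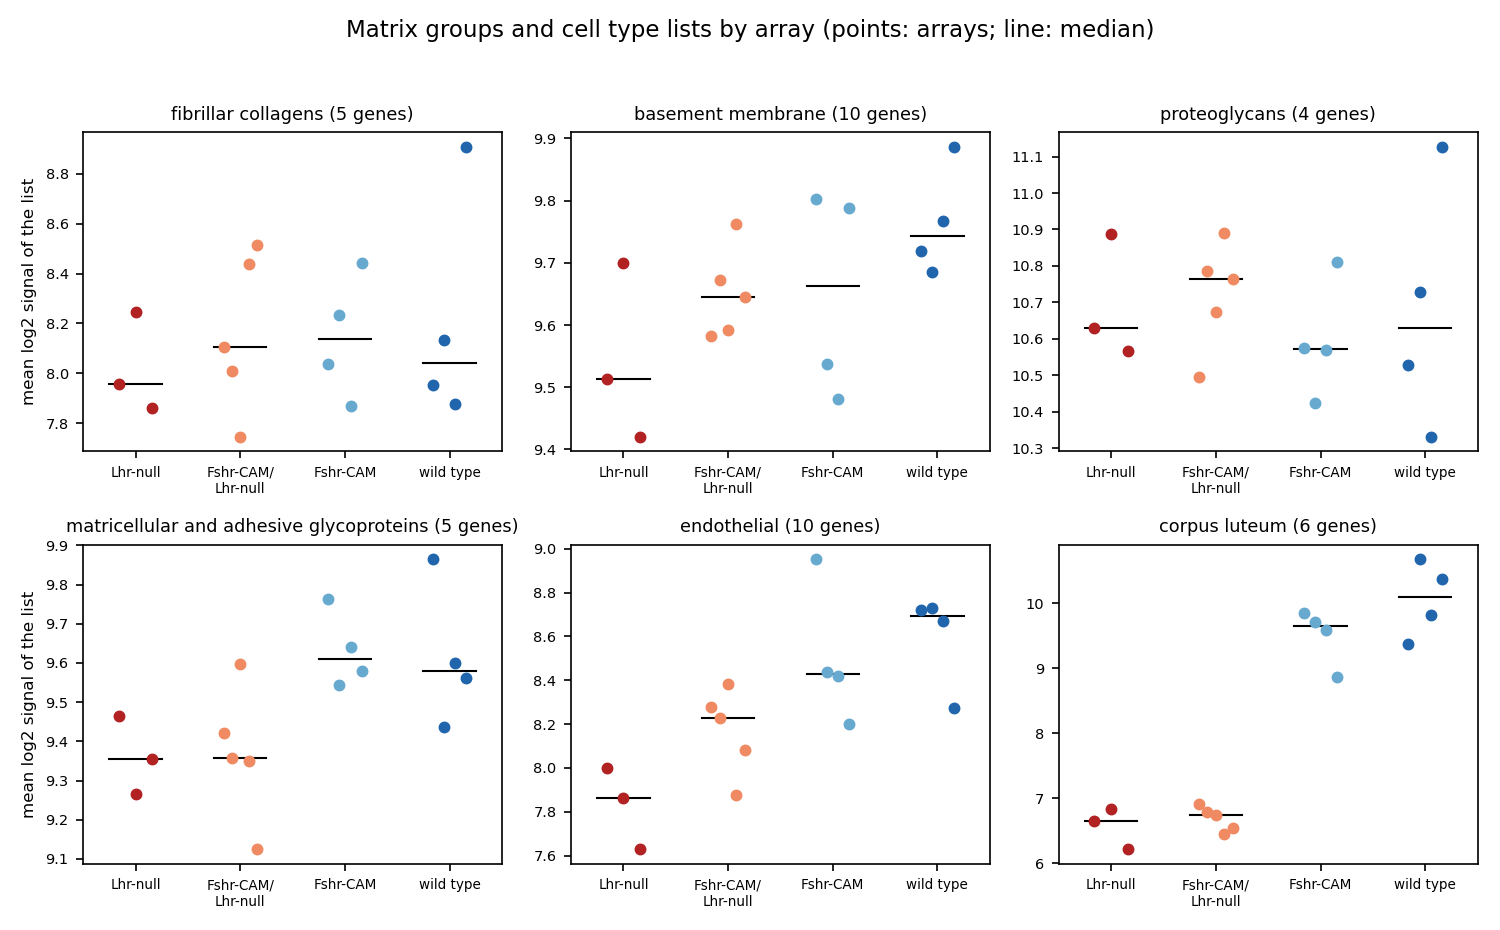
Mean log2 signal (y axis) of 4 groups of matrix genes and of the endothelial and corpus luteum lists on each array, by genotype (x axis); points are arrays and lines are medians. Fibrillar collagens and proteoglycans overlap between all genotypes, whereas the corpus luteum list lies at 6.21 to 6.91 without Lhr and at 8.86 to 10.67 with it.

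Among fibrillar collagens, 1 of 5 passed in Lhr-null against wild type and 0 in the averaged contrast, beside 12.4% and 21.3% of all genes. Col5a1, the chain of type V collagen that helps start fibrils, stood at 10.52, 10.02 and 10.09 in Lhr-null arrays, against 10.65, 10.61, 10.46 and 10.89 in wild type arrays. The groups overlapped in 1 Lhr-null array, replicate 2. The log2 fold change was -0.44 ± 0.12 (SE, limma, adjusted p = 0.0248). In Fshr-CAM/Lhr-null against Fshr-CAM it was 0.04, with a 95% interval of -0.18 to 0.26. The call in Lhr-null ovaries was lost without wild type replicate 2 (adjusted p = 0.0502) or 4 (0.0596), without Lhr-null replicate 3 (0.105) or 4 (0.101), with only the arrays compared (0.109), and with all 17 arrays (0.133).

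The chains of type I collagen, the main collagen of stroma, did not pass. Col1a1 had a log2 fold change of -0.45 ± 0.21 in Lhr-null against wild type (limma, adjusted p = 0.163), with arrays that did not overlap, at 7.57 to 7.80 in Lhr-null and 7.87 to 8.36 in wild type. In the double mutant against Fshr-CAM it was -0.11 ± 0.18. Col1a2 was 0.24 and 0.77 in those contrasts, Col3a1, the type III chain, -0.01 and -0.34, and Col5a2 -0.31 and -0.27, all with SE of 0.39 or more. Col14a1, a collagen that sits on fibrils, was 0.42 ± 0.21 and 0.21 ± 0.18. For Col14a1 the other kept probe gave -0.16 in the averaged contrast, where the brightest gave 0.32, and neither passed.

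The 2 collagen VI chains, which form beaded filaments around cells, gave 0 calls in each of the 7 contrasts. Col6a1 was -0.24 ± 0.17 in Lhr-null against wild type and -0.27 ± 0.15 in the double mutant against Fshr-CAM. Col6a2 was -0.12 ± 0.20 and 0.16 ± 0.17.

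Lox, the lysyl oxidase that starts the cross-links between collagen and elastin chains, had the largest fall of the 32 genes in Lhr-null ovaries. Its log2 signal was 7.25, 7.22 and 7.18 in Lhr-null arrays and 7.87, 7.63, 7.94, 7.78 and 8.14 in Fshr-CAM/Lhr-null arrays, against 7.65, 7.85, 7.89 and 8.39 in Fshr-CAM arrays and 8.25, 8.11, 7.94 and 8.44 in wild type arrays. All 3 Lhr-null arrays lay below every one of the other 13, and double mutant and Fshr-CAM arrays overlapped. The mean was 7.22 ± 0.036 in Lhr-null (SD, n = 3) and 8.19 ± 0.21 in wild type (SD, n = 4), a log2 fold change of -0.97 ± 0.17 (SE) and a 1.95-fold lower signal (limma, adjusted p = 0.00229). In the double mutant against Fshr-CAM it was -0.07, with a 95% interval of -0.40 to 0.25. The test of the difference between those contrasts gave 0.89 ± 0.23 and did not pass (limma, adjusted p = 0.2). On the array labelled Lhr-null replicate 1, Lox was at 8.33, where the 3 kept Lhr-null arrays, normalised with it, spanned 7.17 to 7.24, and with all 17 arrays its call was lost (adjusted p = 0.0941). Loxl1, a relative that acts on elastin, was -0.0060 ± 0.19 in Lhr-null against wild type and -0.24 ± 0.17 in the double mutant against Fshr-CAM.

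Basement membrane genes held 5 of the 9 calls in Lhr-null against wild type, with 4 of 10 lower and 1 higher. The same 5 genes passed in the averaged contrast. Of all genes 12.4% passed in the first of these contrasts and 21.3% in the averaged one. Endothelial cells lay their own basement membrane, and the part of the endothelial list in the results on basement membrane genes was not tested. Type IV collagen forms the network of every basement membrane, and its chains Col4a1 and Col4a2 join in 1 molecule. Col4a1 was at 11.84 to 12.02 in Lhr-null arrays, against 12.27 to 12.58 in wild type arrays. Col4a2 was at 11.06 to 11.42 in Lhr-null arrays, against 11.48 to 11.75 in wild type arrays. Neither pair of groups overlapped. The log2 fold changes of this pair of head-to-head genes were close, -0.48 ± 0.12 for Col4a1 (limma, adjusted p = 0.018) and -0.41 ± 0.11 for Col4a2 (adjusted p = 0.0189). In the double mutant against Fshr-CAM they were -0.07 ± 0.11 and -0.16 ± 0.09 and did not pass. Without Lhr-null replicate 2 the Col4a1 call was lost (adjusted p = 0.067), and without wild type replicate 1 (0.0512), Lhr-null replicate 3 (0.0815) or Lhr-null replicate 4 (0.0726), or with only the arrays compared (0.0644), the Col4a2 call was lost. In the averaged contrast Col4a1 was at -0.28 ± 0.08 (limma, adjusted p = 0.0255), a call lost without Lhr-null replicate 2 (0.0611), and Col4a2 at -0.29 ± 0.07 (adjusted p = 0.0107). With all 17 arrays neither passed (0.0672 and 0.0956).

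Col18a1, the source of the fragment endostatin and a collagen of vessel and epithelial basement membranes, was at 10.72, 10.60 and 10.48 in Lhr-null arrays and 10.58, 10.71, 10.84, 11.01 and 10.68 in Fshr-CAM/Lhr-null arrays, against 11.53, 11.11, 10.70 and 11.12 in Fshr-CAM arrays and 11.47, 11.22, 11.46 and 11.35 in wild type arrays. All 8 arrays without Lhr lay below all 4 wild type arrays, and Fshr-CAM replicate 3 lay among the arrays without Lhr. The mean was 10.60 ± 0.12 in Lhr-null (SD, n = 3) and 11.38 ± 0.12 in wild type (SD, n = 4), with a log2 fold change of -0.77 ± 0.15 (SE, limma, adjusted p = 0.00391). Against wild type the double mutant, at 10.76 ± 0.17 (SD, n = 5), also fell (-0.61 ± 0.13, limma, adjusted p = 0.00913). The fold change against Fshr-CAM was -0.35 ± 0.13 and did not pass (adjusted p = 0.183). A second kept probe of Col18a1 gave -0.68 in the averaged contrast, where the brightest gave -0.56 ± 0.10 (limma, adjusted p = 0.00142).

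Hspg2, which encodes perlecan, the heparan sulphate proteoglycan of basement membranes, was at 10.71 to 11.27 in Lhr-null arrays, against 11.51 to 11.72 in wild type arrays, without overlap. The means were 10.95 ± 0.29 (SD, n = 3) and 11.59 ± 0.091 (SD, n = 4), with a log2 fold change of -0.64 ± 0.15 (SE, limma, adjusted p = 0.0143). In the double mutant against Fshr-CAM it was -0.11 ± 0.14. Without Lhr-null replicate 4 the call in Lhr-null ovaries was lost (-0.52, adjusted p = 0.0767), and so was that in the averaged contrast (-0.31, adjusted p = 0.0584, against -0.37 ± 0.10 and 0.0187 with 16 arrays).

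Lama2, the laminin chain of muscle and nerve basement membranes, moved the other way. It was at 8.44, 8.79 and 8.39 in Lhr-null arrays and 8.48, 8.72, 8.47, 8.80 and 8.43 in Fshr-CAM/Lhr-null arrays, against 7.64, 7.72, 7.72 and 8.42 in Fshr-CAM arrays and 7.65, 7.87, 8.08 and 7.80 in wild type arrays. All 8 arrays without Lhr lay above 7 of the 8 arrays with it, and the exception was Fshr-CAM replicate 4, which lay above 1 Lhr-null array. The mean was 8.54 ± 0.22 in Lhr-null (SD, n = 3) and 7.85 ± 0.18 in wild type (SD, n = 4), a log2 fold change of 0.69 ± 0.18 (SE, limma, adjusted p = 0.0232). In the double mutant it was 8.58 ± 0.17 (SD, n = 5), against 7.88 ± 0.36 in Fshr-CAM (SD, n = 4), a fold change of 0.70 ± 0.16 (limma, adjusted p = 0.0316). The difference between these contrasts was 0.01, with a 95% interval of -0.51 to 0.53. Against wild type the double mutant was higher by 0.73 ± 0.16 (limma, adjusted p = 0.00969).

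The averaged Lama2 contrast, 0.70 ± 0.12 (limma, adjusted p = 0.0012), passed with any 1 of the 16 arrays left out. The call in Lhr-null ovaries was lost without wild type replicate 1 (adjusted p = 0.0594) or 2 (0.0515) and without Lhr-null replicate 3 (0.0955). That in the double mutant against Fshr-CAM was lost without Fshr-CAM replicate 1 (0.12), 2 (0.104) or 3 (0.0779) and without Fshr-CAM/Lhr-null replicate 2 (0.0819), 3 (0.0516) or 4 (0.0804), and its fold change stayed between 0.63 and 0.88 with any 1 array left out. With all 17 arrays Lama2 passed in none of these contrasts. With median-centred signals it was 0.53 in Lhr-null against wild type (limma, adjusted p = 0.104), 0.44 in the double mutant against Fshr-CAM (0.159) and 0.50 in the double mutant against wild type (0.0906), and with only the arrays compared the second of these was lost as well (0.0759). Of 7 smooth muscle genes, a cell type with Lama2 in its basement membrane, 0 passed in either single contrast, 2 were higher in the averaged contrast, and 3 were higher in the double mutant against wild type (median 0.55). Their part in the Lama2 result was not tested.

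The other 5 basement membrane genes did not pass in any of the 7 contrasts. Col15a1, a relative of Col18a1, was -0.06 ± 0.20 in Lhr-null against wild type and -0.22 ± 0.17 in the double mutant against Fshr-CAM. Nid1 and Nid2, the nidogens that link laminin to type IV collagen, were -0.20 ± 0.15 and -0.09 ± 0.14 in Lhr-null against wild type. Lamc1, the gamma chain of most laminins, was -0.07 ± 0.11 there and had the narrowest spread of the 32 genes, with an SD of 0.126 within genotypes. Lamb1, its beta partner, was -0.15 ± 0.68.

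Fbln2, a fibulin of elastic fibres and of vessel basement membranes, gave the largest averaged change of the 32 genes. It was at 7.49, 7.09 and 7.60 in Lhr-null arrays and 7.58, 6.93, 7.33, 7.95 and 8.24 in Fshr-CAM/Lhr-null arrays, against 10.38, 9.0, 8.62 and 8.37 in Fshr-CAM arrays and 7.87, 8.37, 8.01 and 9.12 in wild type arrays. The arrays did not overlap in either Lhr contrast, and the double mutant overlapped with wild type. The 8 arrays without Lhr averaged 7.53 ± 0.43 and the 8 with it 8.72 ± 0.80 (SD), and the averaged log2 fold change was -1.22 ± 0.28 (SE), 2.33-fold lower (limma, adjusted p = 0.00771). Singly it was -0.95 ± 0.42 in Lhr-null against wild type (adjusted p = 0.154) and -1.49 ± 0.37 in the double mutant against Fshr-CAM (adjusted p = 0.0512), past the threshold in neither. Fshr-CAM replicate 1 held the highest value. Without it the averaged call held, with a fold change inside the range of -1.34 to -1.0 found when any 1 array was left out. The second kept probe of Fbln2 gave -0.66 in the averaged contrast and did not pass among all kept probes (limma, adjusted p = 0.0529).

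The other elastic fibre genes, 2 of the 3 measured, did not pass. Fbln1 was 0.67 ± 0.31 in Lhr-null against wild type and 0.30 ± 0.28 in the double mutant against Fshr-CAM. Its averaged change at the brightest probe was 0.48 ± 0.21 (limma, adjusted p = 0.11), but 2 of its 4 other kept probes passed in a fit of all kept probes, at 0.71 (adjusted p = 0.0479) and 0.66 (adjusted p = 0.0182). Eln, which encodes elastin itself, was -0.15 ± 0.19 and -0.17 ± 0.17 in the single contrasts.

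Proteoglycans gave 0 calls of 4 in each of the 7 contrasts. Dcn, Lum and Bgn encode small leucine-rich proteoglycans that bind collagen fibrils, and Vcan encodes the large proteoglycan versican of the follicle. In Lhr-null against wild type their log2 fold changes were 0.10, 0.03, -0.09 and 0.03, with 95% intervals of -0.18 to 0.37 for Dcn, -0.38 to 0.44 for Lum, -0.38 to 0.19 for Bgn and -1.0 to 1.05 for Vcan. In the averaged contrast Dcn was 0.25 ± 0.09 (limma, adjusted p = 0.0547). It passed there without wild type replicate 1 (0.047) or 4 (0.0444), without Fshr-CAM/Lhr-null replicate 4 (0.048) and with the stricter probe filter (0.0468). It was at 13.16, 13.47, 13.45, 13.10 and 13.14 in Fshr-CAM/Lhr-null arrays, against 12.90, 12.79, 12.99 and 12.81 in Fshr-CAM arrays, without overlap, a log2 fold change of 0.39 ± 0.11 (limma, adjusted p = 0.0875). Without wild type replicate 3, which is low for Dcn and is in neither of these groups, that contrast passed (adjusted p = 0.0275). Bgn was 0.25 ± 0.12 there and did not pass.

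Among matricellular proteins, which sit in the matrix and tune how cells bind to it, 2 of 5 were lower in Lhr-null than in wild type ovaries. In the averaged contrast 2 were lower and 1 higher. Of all genes 12.4% and 21.3% passed in these contrasts. The calls of Sparc and Tgfbi in both held under all alternatives that were run. Sparc, a collagen-binding glycoprotein made by endothelial and stromal cells, was at 12.22, 12.01 and 11.83 in Lhr-null arrays and 12.34, 12.40, 12.58, 11.98 and 11.93 in Fshr-CAM/Lhr-null arrays, against 13.01, 12.62, 12.58 and 12.79 in Fshr-CAM arrays and 13.08, 12.78, 13.03 and 12.88 in wild type arrays. All 8 arrays without Lhr lay below all 4 wild type arrays, and 1 double mutant array just overlapped with Fshr-CAM. The mean was 12.02 ± 0.20 in Lhr-null (SD, n = 3) and 12.94 ± 0.13 in wild type (SD, n = 4), a log2 fold change of -0.92 ± 0.15 (SE, 1.90-fold lower, limma, adjusted p = 0.00137). The double mutant, at 12.25 ± 0.28 (SD, n = 5), was lower than wild type by -0.70 ± 0.14 (limma, adjusted p = 0.00457). Its fold change against Fshr-CAM, at 12.75 ± 0.20 (SD, n = 4), was -0.50 ± 0.14 and did not pass (adjusted p = 0.0692). The averaged change was -0.71 ± 0.10 (limma, adjusted p = 0.000237), and of the 2 other kept probes of Sparc 1 passed, at -0.72, and 1 did not, at -1.28 (adjusted p over all kept probes = 0.0714).

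Tgfbi, an adhesive protein that TGF-beta induces and that binds integrins and collagen, was at 10.41, 10.50 and 10.43 in Lhr-null arrays and 10.11, 10.86, 10.75, 10.22 and 10.42 in Fshr-CAM/Lhr-null arrays, against 11.11, 11.02, 10.21 and 11.13 in Fshr-CAM arrays and 11.59, 11.20, 11.41 and 11.30 in wild type arrays. All arrays without Lhr lay below all wild type arrays, and Fshr-CAM replicate 3 was as low as the arrays without Lhr. The mean was 10.45 ± 0.045 in Lhr-null (SD, n = 3) and 11.38 ± 0.17 in wild type (SD, n = 4), a log2 fold change of -0.93 ± 0.21 (SE, limma, adjusted p = 0.00982). The double mutant, at 10.47 ± 0.33 (SD, n = 5), was lower than wild type by -0.91 ± 0.19 (limma, adjusted p = 0.00635). Against Fshr-CAM the fold change was -0.40 ± 0.19 and did not pass (adjusted p = 0.275). The averaged change was -0.66 ± 0.14 (limma, adjusted p = 0.00448), and the second kept probe gave -0.89.

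Thbs1, a thrombospondin that blocks vessel growth and activates latent TGF-beta, was higher in the averaged contrast, at 7.83 ± 0.24 over the 8 arrays without Lhr and 7.32 ± 0.38 over the 8 with it (SD), a change of 0.54 ± 0.16 (limma, adjusted p = 0.0259). Singly it was 0.74 ± 0.24 in Lhr-null against wild type (adjusted p = 0.0525) and 0.33 ± 0.21 in the double mutant against Fshr-CAM (adjusted p = 0.432). The arrays overlapped, at 7.56 to 8.11 without Lhr and 6.75 to 7.87 with it. The call was lost without wild type replicate 2 (adjusted p = 0.0551), Fshr-CAM replicate 1 (0.052), Lhr-null replicate 2 (0.0584) or Lhr-null replicate 4 (0.0634). The Thbs1 call was also lost with array weights and no intensity trend (limma, adjusted p = 0.0815), without both Lhr-null replicate 2 and Fshr-CAM/Lhr-null replicate 4 (0.0869), and with all 17 arrays (0.908). Its relative Thbs2 was -0.08 ± 0.20 in Lhr-null against wild type and -0.20 ± 0.17 in the double mutant against Fshr-CAM. Fn1, which encodes fibronectin, was -0.08 ± 0.20 and -0.54 ± 0.18 in those contrasts, with neither past the threshold (limma, adjusted p = 0.854 and 0.134).

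**Figure D3:**
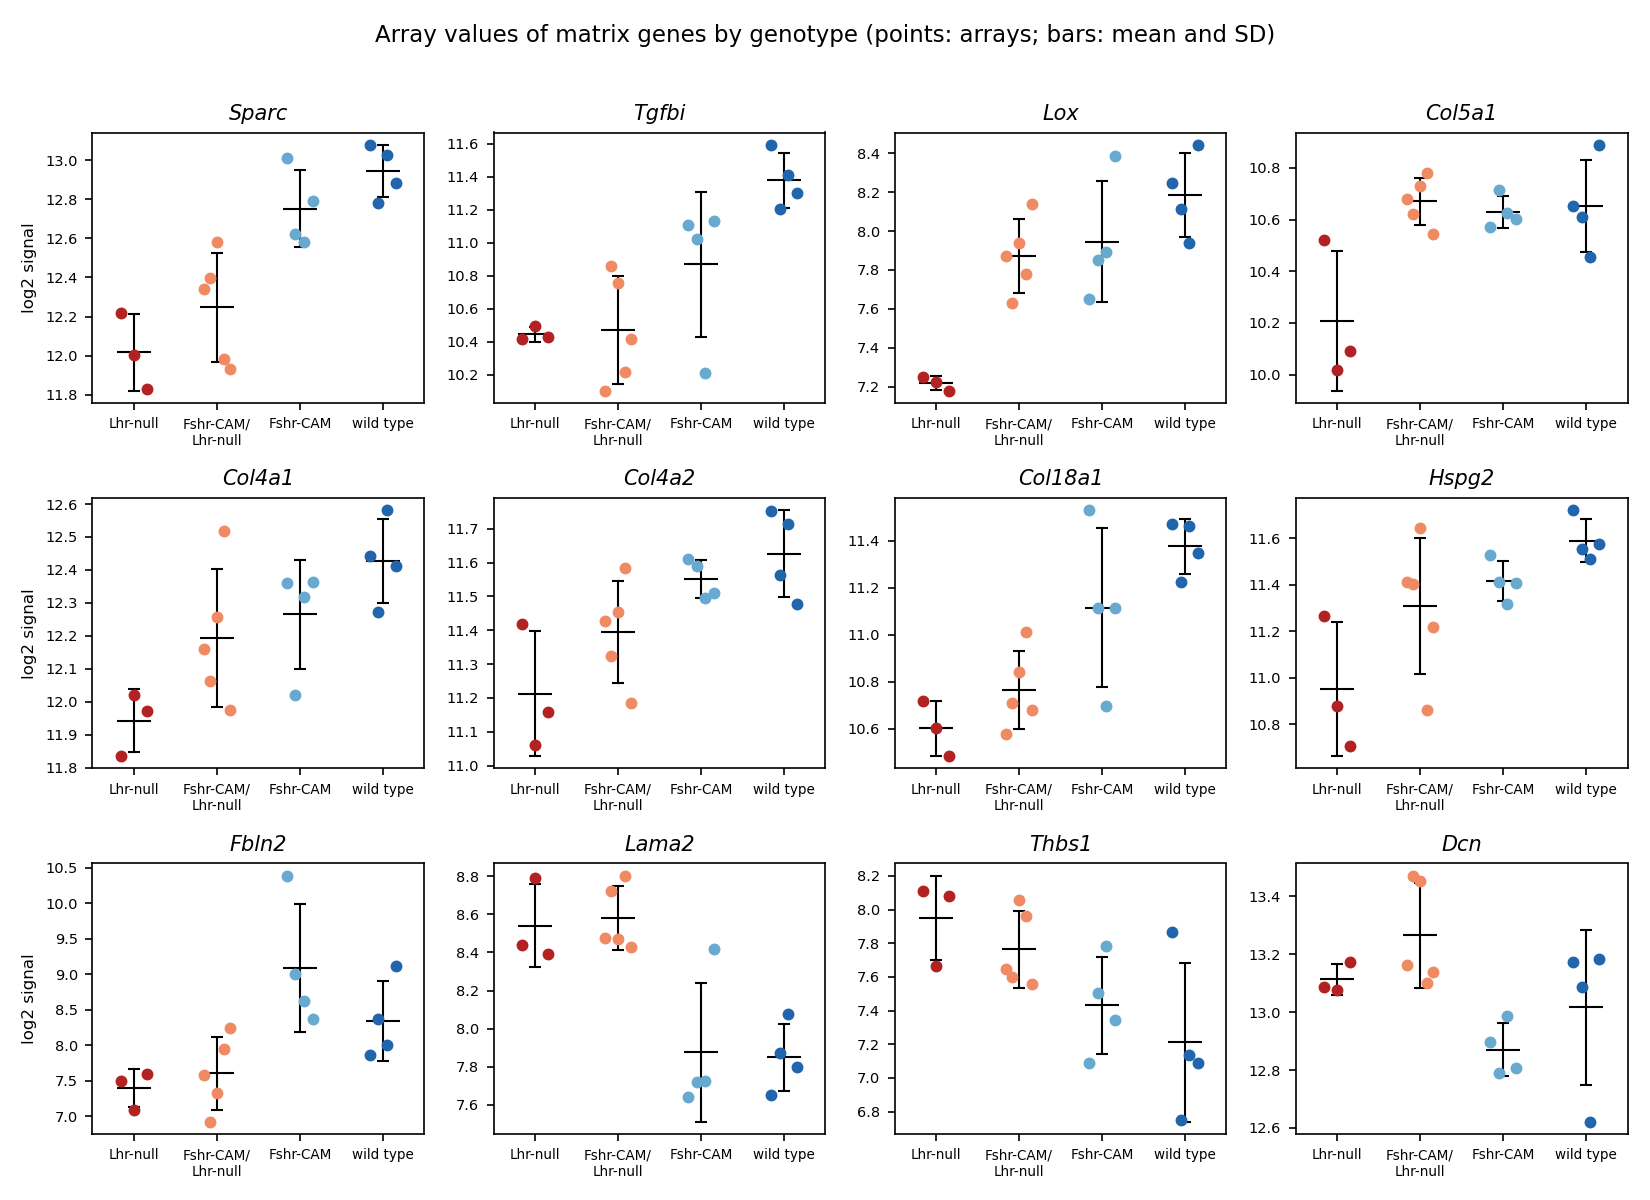
Log2 signal (y axis, a separate range in each panel) of 12 matrix genes on each array, by genotype (x axis); points are arrays and bars are the mean and SD. Lox lies at 7.18 to 7.25 in the 3 Lhr-null arrays and at 7.63 or above in the other 13, whereas Sparc, Tgfbi and Col18a1 lie below the wild type arrays on all 8 arrays without Lhr, and Lama2 above them.

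Set against wild type, the double mutant differed from it in 4 of the 32 matrix genes: Tgfbi, Sparc and Col18a1 were lower and Lama2 higher. For these 4 genes the arrays of the groups did not overlap. Of all genes 10.2% passed, 4.49% higher and 5.68% lower, and 14.3% did not overlap. On the double mutant arrays the oviduct and adipocyte lists, normalised over 17 arrays, stood at no more than 6.37 and 6.78. These highest values, both on Fshr-CAM/Lhr-null replicate 3, lay below every kept Lhr-null array and above the highest wild type values, 5.65 and 6.43. The medians of the double mutant arrays were 5.30 and 6.10, against 5.50 and 5.99 in wild type. The part of these lists in the 4 calls was not tested. Lox, Hspg2, Col4a1 and Col4a2 were -0.31, -0.28, -0.23 and -0.23 in the double mutant against wild type and did not pass (limma, adjusted p from 0.132 to 0.215). With all 17 arrays 0 of the 32 genes passed, and with median-centred signals 7, all lower, beside 127 of all genes higher and 1109 lower, against 545 and 689 with background correction.

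In the contrasts on the Fshr genotype none of the 32 genes passed. In Fshr-CAM against wild type 0 of 32 passed by limma, against 0.206% of all genes (0.173% higher and 0.0330% lower), with 1 of the 32 and 735 of all 12137 genes at an unadjusted p under 0.05. The 1 gene was Tgfbi (-0.51 ± 0.20, adjusted p = 0.651), and its arrays alone among the 32 did not overlap, against 3.48% of all genes. The matrix fold changes ran from -0.51 to 0.75, with a median of -0.07. In Fshr-CAM/Lhr-null against Lhr-null 0 of 32 passed by limma, against 0.700% of all genes, with 5 at an unadjusted p under 0.05, where 1594 of all genes stood. The nearest were Col5a1, at 0.46 ± 0.11 (adjusted p = 0.0874), and Lox, at 0.65 ± 0.17 (adjusted p = 0.0945), each with all double mutant arrays above the Lhr-null arrays. That held for 3 of the 32 genes, the third being Bgn, against 7.90% of all genes without overlap. These and the next values rest on the same 3 Lhr-null arrays as the Lhr contrast.

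The interaction asks whether the change with loss of Lhr differs between the Fshr genotypes, as the double mutant contrast minus the Lhr-null contrast. By limma 0 of 32 matrix genes passed, against 0.198% of all genes, with 894 of all genes and 4 of the 32 at an unadjusted p under 0.05: Lox (0.89 ± 0.23), Hspg2 (0.53 ± 0.21), Col5a1 (0.48 ± 0.16) and Col4a1 (0.41 ± 0.16), with adjusted p from 0.2 to 0.57. In these 4 genes the fold change was nearer to 0 in the double mutant contrast, but the difference was not past the threshold. Without Lhr-null replicate 2, Col5a1 passed in Fshr-CAM/Lhr-null against Lhr-null (0.62, adjusted p = 0.00963). Without both that array and Fshr-CAM/Lhr-null replicate 4, Hspg2 passed there (0.63, adjusted p = 0.0109) and in the interaction (0.80, adjusted p = 0.0267).

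Genes that make, bind or signal to the matrix were read from 4 further lists in the averaged contrast, beside 21.3% of all genes. Of 13 measured genes of collagen folding and processing, 2 were lower and 0 higher: Pcolce, the enhancer of procollagen cleavage (-0.94 ± 0.20, limma, adjusted p = 0.00494), and P3h2, a prolyl hydroxylase of basement membrane collagen (-0.63 ± 0.21, adjusted p = 0.0428). Of 23 matrix receptors, 5 were lower and 1 higher, among them the syndecans Sdc1 (-0.82 ± 0.24, adjusted p = 0.0266) and Sdc3 (-0.52 ± 0.17, adjusted p = 0.0425), and, higher, the integrin chain Itgav (0.48 ± 0.13, adjusted p = 0.021). None of the 4 lists held any of the 38 genes above.

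Of 13 TGF-beta ligands and binders, 2 were lower and 1 higher. Ltbp1, which tethers latent TGF-beta to the matrix, was lower by -2.23 ± 0.21 (limma, adjusted p = 6.74e-06), with a mean of 8.37 ± 0.48 in Lhr-null (SD, n = 3) and 10.49 ± 0.18 in wild type (SD, n = 4), and 7.97 ± 0.50 in the double mutant (SD, n = 5) and 10.30 ± 0.58 in Fshr-CAM (SD, n = 4). Tgfb1 was lower by -1.05 ± 0.16 (adjusted p = 0.000399) and Ltbp4 was higher by 0.46 ± 0.14 (adjusted p = 0.0267). Of 35 other matrix genes, 3 were lower and 6 higher. Tnc, the tenascin of remodelling tissue, was 11.2-fold lower (-3.49 ± 0.31, adjusted p = 3.58e-06), with a mean of 7.22 ± 0.19 in Lhr-null (SD, n = 3), against 10.63 ± 0.96 in wild type (SD, n = 4), Ecm1 was lower by -2.09 ± 0.44 (adjusted p = 0.00418), and Col4a3, a type IV chain of kidney and lung basement membranes, was higher by 0.65 ± 0.18 (adjusted p = 0.0175). In Fshr-CAM against wild type these 4 lists gave 1 call, Ogn (0.76 ± 0.12, limma, adjusted p = 0.0136), named here after its values were seen.

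How far the matrix genes varied between arrays of 1 genotype differed widely. The SD within genotypes was under 0.3 on the log2 scale for 23 of the 32 genes and over 0.5 for 6: Lamb1 (0.999), Col3a1 (0.83), Col5a2 (0.72), Vcan (0.70), Col1a2 (0.65) and Fbln2 (0.62). For Lamb1 the wild type arrays stood at 5.95, 5.94, 6.24 and 7.77 and the Lhr-null arrays at 5.51, 7.63 and 5.84. For Col3a1 they stood at 8.23, 8.56, 8.27 and 10.51 in wild type and at 8.48, 9.93 and 8.22 in Lhr-null. In both genes wild type replicate 4 and Lhr-null replicate 3 were the high arrays, and Fshr-CAM/Lhr-null replicate 5 was the highest of its group, a pattern named after the values were seen. Vcan and Col1a2 were also highest in their groups on wild type replicate 4 and Lhr-null replicate 3. The number of arrays leaves wide intervals for such genes: the 95% interval of Lamb1 in Lhr-null against wild type was -1.59 to 1.29. Lamb1 was detected on 15 and Col5a2 on 12 of the 16 arrays, and the other 30 genes on all of them.

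**Figure D4:**
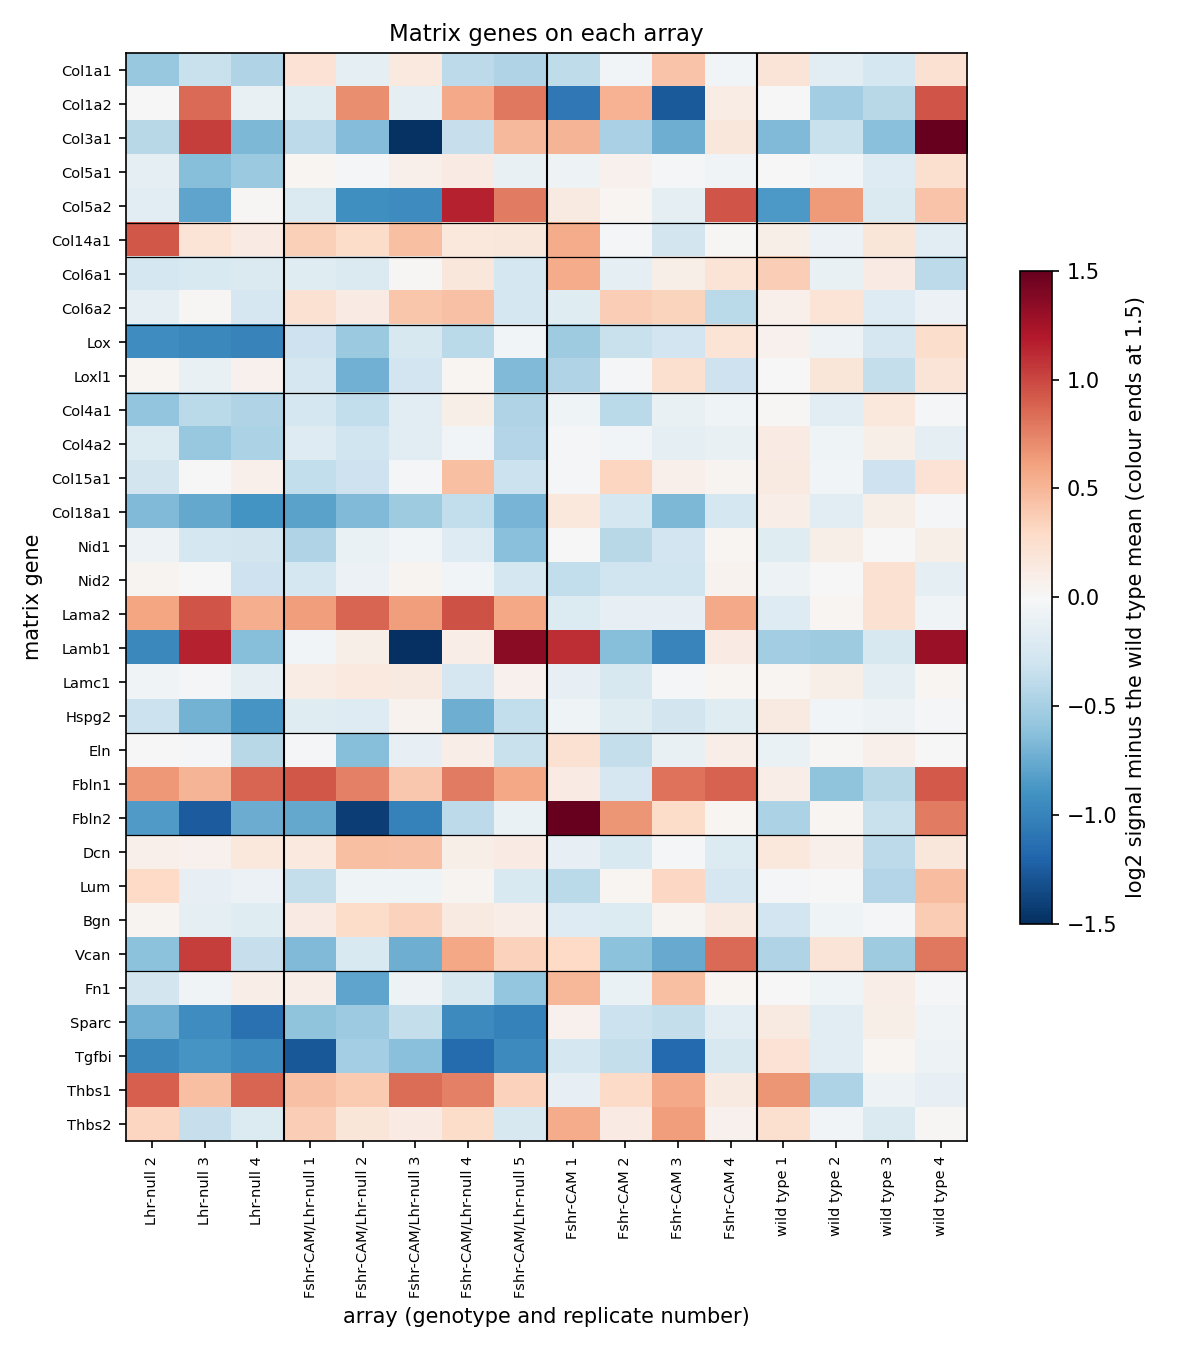
Log2 signal of the 32 matrix genes (rows, by group) on each of 16 arrays (columns, by genotype) minus the wild type mean of the gene, red above and blue below it, with colours ending at 1.5. Sparc, Tgfbi and Col18a1 are blue and Lama2 is red on all 8 arrays without Lhr, Lox is in its row darkest blue on the 3 Lhr-null arrays, and Col3a1 and Lamb1 are dark on single arrays of several genotypes.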

How the data were processed

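The deposited tables hold, per the file headers, a non-normalised bead intensity, a detection p-value and a number of beads for each of 45281 probes on 17 arrays, and the authors' normalised intensities, which were used as an alternative only. The submitters' processing notes name GenomeStudio 1.7.0. The series matrix equals the normalised table (largest difference 0). Of the probes, 34885 carry 1 gene symbol in the platform annotation, 18 several and 10378 none. Every column of values could be given to a sample by its name.

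Intensities were background-corrected, quantile-normalised and put on the log2 scale with neqc (limma 3.58.1, R 4.3.3, offset 16). Probes with a detection p-value under 0.05 on at least 4 arrays were kept (23098), and the brightest kept probe stood for its gene (12137 genes, or 12260 with 17 arrays). A linear model over 16 arrays in 4 genotype groups was fitted with lmFit and eBayes with an intensity trend, and p-values were adjusted over all genes by Benjamini-Hochberg with a threshold of 0.05. The array labelled Lhr-null replicate 1 was left out because earlier results of these data showed pituitary genes on it. The averaged contrast is the mean of the 2 Lhr contrasts. The fits were tested on simulated data. In Lhr-null against wild type they recovered 18 of 100 log2 changes of 0.5 and 59 of 100 changes of 1. In Fshr-CAM/Lhr-null against Fshr-CAM 23 and 57 were recovered, and in the averaged contrast 45 and 84. Of the 12137 genes simulated, 100 were changed by each amount, and 4, 3 and 8 unchanged genes passed in these contrasts. The changed genes were a smaller share than passed in the data, which makes the adjusted threshold stricter. The counts are therefore not the power of the real fits. Precision is limited by how many arrays there are.

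The members and the other gene lists were chosen with earlier results of these data known. Every measured member is named, full statistics are given in each comparison for at most 6 genes that passed, taken by size of change, array values for up to 2 in each class in the averaged contrast, and up to 3 genes for each further list. Values given beyond that were chosen after they were seen. The alternatives were other sets of arrays, the authors' normalised values, median centring, other probe filters and averaging all kept probes of a gene. Others were weights for arrays, fitted without the intensity trend, a replicate block, fits of only the arrays compared, and leaving out each array. Sequences come from the RefSeq promoter table (GRCm38.p6). Figures were drawn with matplotlib 3.10.9 from tables read with pandas 2.3.3.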

Additional observations from a re-analysis of the deposited data

Results flagged for a closer look

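Single arrays stood far from the rest of their genotype in 7 of 96 sets of arrays tested (32 genes in the 3 genotypes with 4 or 5 arrays), where chance gives about 1 in 20. Col3a1 was at 10.51 on wild type replicate 4, against 8.23 to 8.56 on the other wild type arrays, and Lamb1 was at 7.77 on the same array, against 5.94 to 6.24. Dcn was at 12.62 on wild type replicate 3, against 13.09 to 13.18. On Fshr-CAM replicate 2, Col4a1 was at 12.02, against 12.32 to 12.36 on the other Fshr-CAM arrays. Lama2 was at 8.42 on Fshr-CAM replicate 4, against 7.64 to 7.72, and Tgfbi at 10.21 on Fshr-CAM replicate 3, against 11.02 to 11.13. Lamc1 was at 9.75 on Fshr-CAM/Lhr-null replicate 4, against 10.06 to 10.16 on the other double mutant arrays.

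The array labelled Lhr-null replicate 1, which is in none of the comparisons above, carried a mean log2 signal of 12.8 over the pituitary genes, against 4.36 to 4.59 on the other 16 arrays.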

How the results depend on the processing

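No gene that passed changed its direction under any alternative run. Counts are of the 32 matrix genes. In Lhr-null against wild type, 9 passed, 4 with all 17 arrays, 8 with a replicate block, and 6 to 10 with 1 array left out. In the averaged contrast, 10 passed, 4 with all 17 arrays, 16 with median-centred signals, and 8 to 13 with 1 array left out. In Fshr-CAM/Lhr-null against Fshr-CAM, 1 passed, and 0 with all 17 arrays, with the 15 arrays left without double mutant replicate 4, with the 14 left without Lhr-null replicate 2 too, with the replicate block and with only the arrays compared. It was 5 with median-centred signals, 2 with the stricter probe filter and 2 with array weights and no intensity trend. Fbln2 also passed with that filter and with those weights (limma, adjusted p = 0.0439 and 0.0152). With 1 array left out the count was 0 to 2. In Fshr-CAM/Lhr-null against wild type, 4 passed, 0 with all 17 arrays, 7 with median-centred signals, and 4 to 5 with 1 array left out. In Fshr-CAM/Lhr-null against Lhr-null, 0 passed, 2 with 14 arrays, 1 with array weights and no trend (Col5a1), and 0 to 1 with 1 array left out. In the interaction 0 passed, and 1 with 14 arrays. In Fshr-CAM against wild type 0 passed in every fit. The causes were not tested.

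Of all genes, with all 17 arrays 861 passed in Lhr-null against wild type (1505 in 16), 91 in Fshr-CAM/Lhr-null against Fshr-CAM (256), 1139 in the averaged contrast (2584), 406 in Fshr-CAM/Lhr-null against wild type (1234), 6 in Fshr-CAM against wild type (25) and 13 in the interaction (24). With array weights and no intensity trend the counts were 406 in Fshr-CAM/Lhr-null against Fshr-CAM and 1947 in Fshr-CAM/Lhr-null against wild type. They were 60 in Fshr-CAM against wild type, 332 in Fshr-CAM/Lhr-null against Lhr-null (85) and 79 in the interaction. With only the arrays compared they were 968 in Lhr-null against wild type, 5 in Fshr-CAM against wild type and 17 in Fshr-CAM/Lhr-null against Lhr-null. With median-centred signals 614 passed in Fshr-CAM/Lhr-null against Fshr-CAM. The stricter filter gave 128 in Fshr-CAM/Lhr-null against Lhr-null and 49 in the interaction, and no detection filter gave 38 in the interaction. With 1 array left out, Lhr-null against wild type gave 863 (without wild type replicate 2) to 1802, Fshr-CAM/Lhr-null against Fshr-CAM 143 (without Fshr-CAM replicate 2) to 509 (without Fshr-CAM replicate 4), the averaged contrast 1886 to 2792, Fshr-CAM against wild type 8 (without Fshr-CAM replicate 3) to 43 and Fshr-CAM/Lhr-null against wild type 712 (without wild type replicate 2) to 1484. Fshr-CAM/Lhr-null against Lhr-null gave 37 (without Lhr-null replicate 4) to 286 and the interaction 11 (without Fshr-CAM replicate 4) to 67, both highest without Fshr-CAM/Lhr-null replicate 4, as was Fshr-CAM against wild type.

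The replicate numbers did not pair the arrays. The deviations of same-numbered arrays of different genotypes from their group means correlated at -0.47 to 0.32 over 21 pairs, with 4 above 0.1. With the replicate block, 1940 of all genes passed in the averaged contrast, 43 in Fshr-CAM/Lhr-null against Lhr-null and 10 in the interaction. The block ended the calls of Lama2 in Lhr-null against wild type (limma, adjusted p = 0.059) and in Fshr-CAM/Lhr-null against Fshr-CAM (0.0565) and of Thbs1 in the averaged contrast (0.0523), and no other call of these 32 genes. With 3 to 5 arrays a genotype, intervals were wide for genes that vary much between arrays, and detection against background limits Col5a2 and Lamb1.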
